A study of Mus musculus with 6 samples.

Results

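The genes described here are 10 mouse genes whose enzymes remove hydrogen peroxide or superoxide: the peroxiredoxins Prdx1, Prdx2, Prdx3, Prdx5 and Prdx6, the catalase gene Cat, the superoxide dismutases Sod1 and Sod2, and the glutathione peroxidases Gpx1 and Gpx4. They were taken by symbol, in a list drawn up with earlier results of these data known, and are 10 of the 48709 genes in the count table and 10 of the 12722 with enough counts to be tested. RNA was sequenced from G1E-ER4 cells, mouse red cell precursors grown as a line, whose origin is embryonic stem cells. In these cells GATA-1 is expressed as a chimera with the hormone-binding part of an estrogen receptor (ER), and tamoxifen switches it on, after which the cells mature along the erythroid path. One group of 3 libraries came from cells given the CHD4-APR peptide, an aggregation-prone region of the chromatin remodeler CHD4 joined to the cell-entry sequence Tat, and the other group of 3 from cells given CTRL, a run of alanines joined to Tat. Each peptide was given at 10 μM for 2 h and tamoxifen followed for 28 h, so that all cells were collected at 30 h, and both groups carry the fusion and received tamoxifen. The tamoxifen concentration is 100 nM in the growth protocol and 100 μM in the design text. Cells without tamoxifen were not analysed here, and the labels do not say whether replicates were separate cultures, so the p-values measure only the spread between these libraries.

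Superoxide dismutases turn superoxide, mainly a by-product of respiration and of hemoglobin oxidation, into hydrogen peroxide and oxygen. Catalase, the glutathione peroxidases and the peroxiredoxins then reduce the peroxide, with glutathione as the electron donor for the glutathione peroxidases and thioredoxin for most peroxiredoxins. Maturing red cells carry iron, heme and oxygen together, and Prdx2, Cat, Gpx1 and Sod1 are known as main parts of their defence.

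Sequences of interest sit in 4 of these genes. Gpx1 and Gpx4 are selenoproteins, in which a TGA codon that would normally end translation is read as selenocysteine, the residue of the active site. These codons are shown because translation of both messages depends on the selenocysteine machinery described further on. In GRCm38 the codon of Gpx1 is at chr9:108339451-108339453 on the plus strand and is codon 47 of the coding exons of Gpx1-201, and that of Gpx4 is at chr10:80054737-80054739 on the plus strand and is codon 129 of Gpx4-201. The bases are the coding sequence from 5′ to 3′, and capitals mark the codon.
Gpx1: tgtcgcgtctctcTGAggcaccacgatcc
Gpx4: cgtggcctcgcaaTGAggcaaaactgacg
Promoters, from 250 bases before to 50 after the start site in RefSeq for GRCm38.p6, were at hand for 9 of the 10 genes, with 12 start sites in all because Gpx4 has several. They were searched on both strands for the core of the antioxidant response element, TGACNNNGC, which is bound by Nrf2 and Bach1 with small Maf proteins, and for the sites of GATA-1, which are AGATA or TGATA followed by an A or a G. The antioxidant core occurred in the promoters of Prdx1 and Sod1, against 12.4% of all 32851 promoters. It begins 133 bases before the start of Prdx1, within chr4:116685456-116685484, and 56 bases before the start of Sod1, within chr16:90220696-90220724. Both are printed on the plus strand, where capitals mark the match to the reverse complement of the core.
Prdx1: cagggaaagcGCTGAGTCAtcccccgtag
Sod1: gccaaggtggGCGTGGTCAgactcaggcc
A GATA site occurred in 29.8% of all promoters and, among these genes, only before 3 of the Gpx4 starts. The site at chr10:80053410-80053435, printed on the plus strand with the match in capitals, lies before more than 1 of those starts.
Gpx4: gcgcagttgcTGATAAcaacaaactc
These matches are letters in a window and not measured binding.

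All 10 genes were expressed, with raw counts per library from 2234 for Sod2 to 238025 for Prdx2. Levels between genes were compared as TPM, which divides counts by gene length and scales every library to the same total. With length taken over all exons of a gene, the order in the CTRL libraries was Gpx1, Prdx2, Gpx4, Prdx3, Cat, Prdx1, Sod1, Prdx6, Prdx5 and Sod2, and the libraries of no neighbouring genes overlapped. Gpx1 stood at 4991 ± 47.7 TPM (SD, n = 3), Prdx2 at 3272 ± 50.5, Gpx4 at 1126 ± 30.9 and Sod2, the lowest, at 11.3 ± 0.122. The CHD4-APR libraries gave the same order, again without overlap between neighbours. Length taken from the longest protein-coding transcript, an alternative added after seeing the data, moved Sod1 from 112 ± 3.12 to 523 ± 14.9 TPM in the CTRL libraries and placed it above Prdx3, because its exons span 3970 bases together and that transcript 641. On that scale Prdx3 and Sod1 overlapped in the CHD4-APR libraries, as did Prdx1 and Prdx6.

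**Figure D1:**
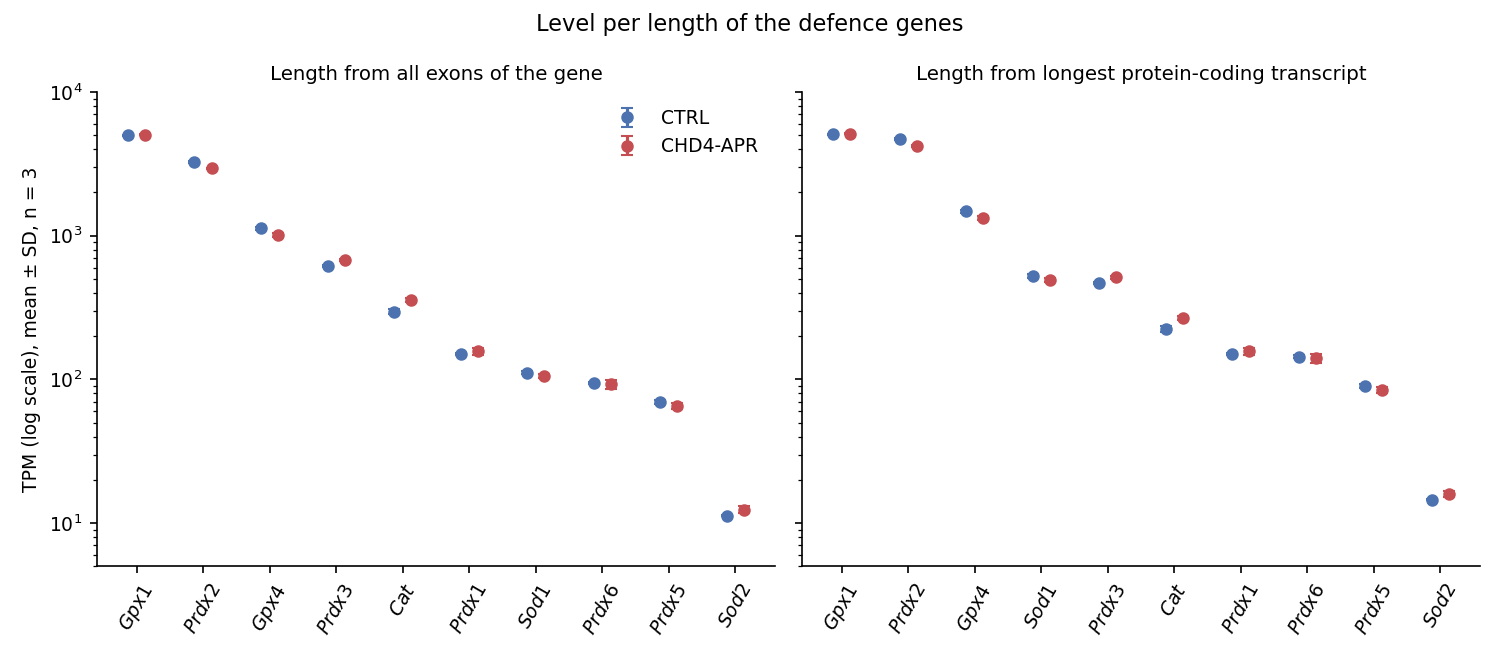
TPM of each gene on a log axis, as the mean with SD over the 3 CTRL libraries (blue) and the 3 CHD4-APR libraries (red), with length from all exons (left) and from the longest protein-coding transcript (right). Gpx1, Prdx2 and Gpx4 lead on both scales, Sod2 is the lowest on both, and Sod1 changes place.

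Between the peptides, 6 of the 10 genes fell with CHD4-APR (Prdx2, Prdx5, Prdx6, Sod1, Gpx1 and Gpx4), Cat rose, and Prdx1, Prdx3 and Sod2 did not pass the test. With corrections for transcript length and GC content, given further on, Gpx1 changed sign without a call, Prdx5 lost its call and Sod1 lost it in 1 of the 2 corrections, while Prdx1 and Sod2 were called lower in both. The test was edgeR's quasi-likelihood test on all tested genes, with Benjamini-Hochberg adjustment to a false discovery rate (FDR) and a threshold of 0.05. Of all tested genes, 17.8% were called lower and 20.4% higher by the same rule. The changes were small: without correction the called falls ran from Gpx1, which fell by 9.04%, to Prdx2, which fell by 19.2%. The median log2 fold change was -0.16 over the 10 genes and -0.01 over all tested genes. In 6 of the 10 genes every CHD4-APR library lay below every CTRL library, which 25% of all tested genes also did, and in Cat every CHD4-APR library lay above, as in 25% of all tested genes. These were the same 7 genes that passed the test. RNA from the whole culture was measured, so less RNA of a gene per cell and fewer cells expressing it cannot be told apart.

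**Figure D2:**
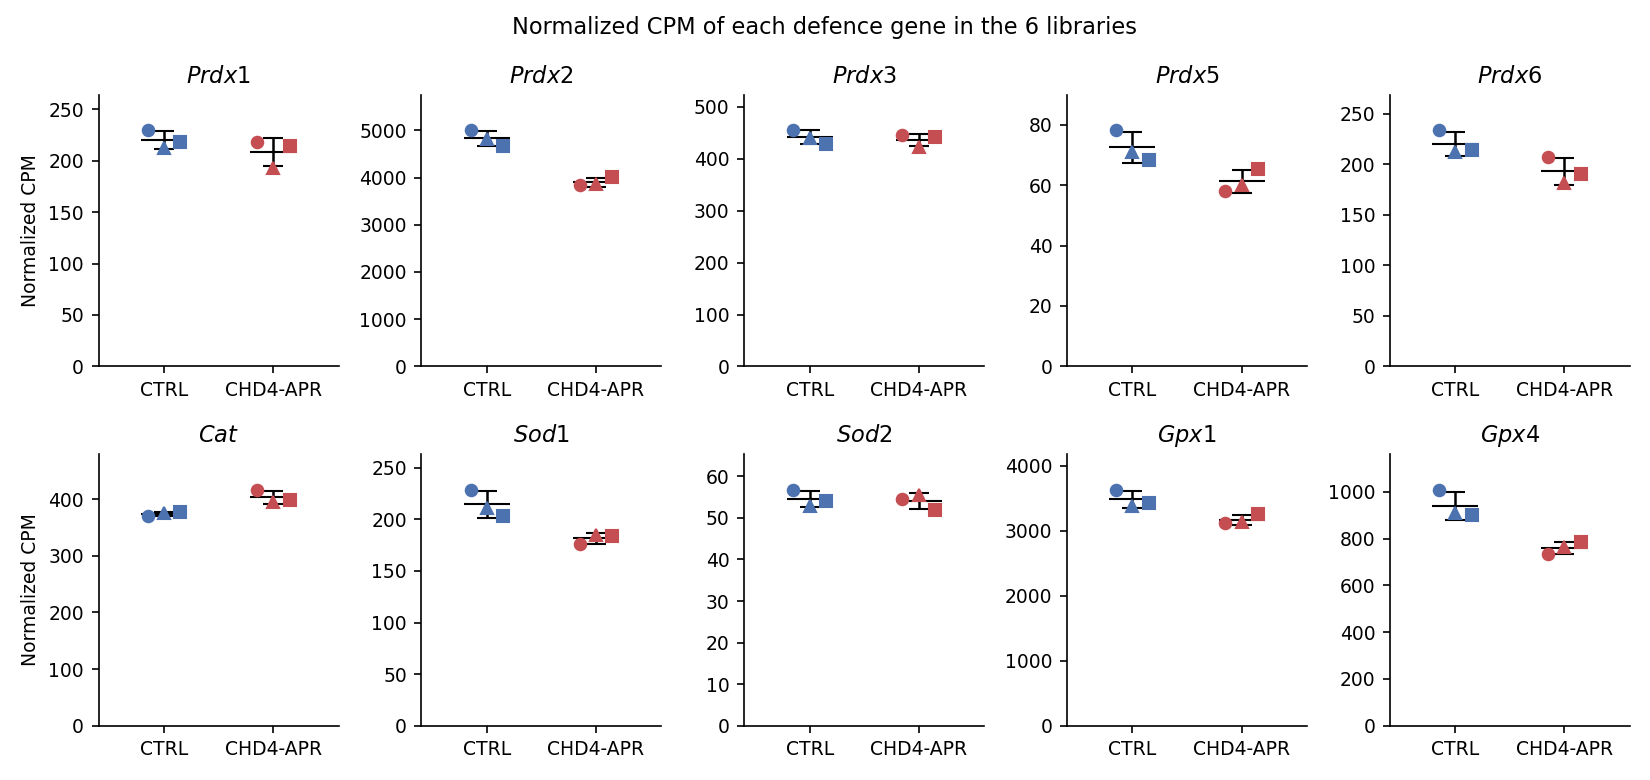
Normalized CPM of each gene in the 6 libraries, on linear axes from 0 that differ between panels; circles, triangles and squares are replicates 1, 2 and 3, and the black bars are the mean and SD over 3 libraries. The groups do not overlap in Prdx2, Prdx5, Prdx6, Cat, Sod1, Gpx1 and Gpx4, and overlap in Prdx1, Prdx3 and Sod2.

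Prdx2 (ENSMUSG00000005161, chromosome 8 from 84969587 to 84974834, plus strand), the abundant cytosolic peroxiredoxin of red cells, had the largest fall of the 10 genes without correction, although Gpx4 differed from it by less than the standard error. Sod2 fell more with either length correction, and Sod1 with the one on exonic length (-0.28 against -0.26 for Prdx2). The normalized CPM of Prdx2, counts scaled to library size by TMM, were 4998, 4821 and 4671 with CTRL and 3833, 3867 and 4012 with CHD4-APR. The lowest CTRL library was above the highest CHD4-APR library. The means were 4830 ± 164 and 3904 ± 95.2 CPM (SD, n = 3), and the log2 fold change (± standard error) was -0.31 ± 0.044 with an FDR of 5.32e-05. Prdx2 stayed lower and past its threshold in all 20 alternatives, with log2 fold changes between -0.33 and -0.23.

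Prdx6 (ENSMUSG00000026701, chromosome 1 from 161240112 to 161251219, minus strand) encodes a cytosolic peroxiredoxin that takes its electrons from glutathione and also acts on phospholipids. It had 234, 212 and 214 CPM with CTRL and 207, 181 and 190 CPM with CHD4-APR. The highest CHD4-APR library came close to the lowest CTRL library without reaching it. The log2 fold change was -0.19 (standard error 0.053, FDR 0.0108), and without CHD4-APR replicate 2 it was -0.14 with an FDR of 0.0915.

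Prdx5 (ENSMUSG00000024953, chromosome 19 from 6906697 to 6910106, minus strand) encodes a peroxiredoxin found in mitochondria, peroxisomes and the cytosol. It had 78.1, 71.0 and 68.3 CPM with CTRL and 58.1, 60.1 and 65.4 CPM with CHD4-APR. The groups did not overlap, and the log2 fold change (± standard error) was -0.24 ± 0.059 with an FDR of 0.0037. The gene shares 409 of its 2139 exonic bases with Trmt112 on the opposite strand. The library kit does not keep strand, so reads there cannot be assigned to either gene, and Trmt112 itself changed by -0.18 (FDR 0.0107).

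Prdx1 (ENSMUSG00000028691, chromosome 4 from 116685544 to 116700822, plus strand), a cytosolic peroxiredoxin and a classical Nrf2 target, had 229, 212 and 219 CPM with CTRL and 218, 193 and 214 CPM with CHD4-APR. The groups overlapped, and the log2 fold change (± standard error) was -0.08 ± 0.051 with an FDR of 0.243. Prdx3 (ENSMUSG00000024997, chromosome 19 from 60864051 to 60874556, minus strand), the peroxiredoxin of the mitochondrial matrix, had 455, 441 and 428 CPM with CTRL and 445, 422 and 441 CPM with CHD4-APR. Its libraries overlapped as well, and the log2 fold change (± standard error) was -0.02 ± 0.043 with an FDR of 0.794. Its FDR was at least 0.582 in every alternative.

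The make-up of the peroxiredoxin RNA differed too. Prdx2 held 77.9 ± 0.139% of the peroxiredoxin TPM of these 5 genes with CTRL and 74.8 ± 0.733% with CHD4-APR (SD, n = 3). Prdx3 held 14.7 ± 0.065% and 17.2 ± 0.422%. With coding transcript lengths the shares of Prdx2 were 84.6 ± 0.147% and 82.5 ± 0.589%, so the share depended on the length used but was lower with CHD4-APR on both scales. Within each library the log2 ratio of Prdx2 to Prdx3 counts, which no scaling between libraries can change, was 3.46, 3.45 and 3.45 with CTRL and 3.11, 3.20 and 3.19 with CHD4-APR.

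Cat (ENSMUSG00000027187, chromosome 2 from 103453849 to 103485160, minus strand), the peroxisomal catalase that splits hydrogen peroxide without a donor, went the other way. It had 371, 376 and 377 CPM with CTRL and 417, 395 and 399 CPM with CHD4-APR, so all CHD4-APR libraries were higher. The means were 374 ± 3.28 and 404 ± 11.6 CPM (SD, n = 3), and the log2 fold change (± standard error) was 0.11 ± 0.041 with an FDR of 0.0448. This call was the nearest to the threshold of all 7. Without any 1 of the 6 libraries Cat no longer passed: the log2 fold change then lay between 0.09 and 0.13 and the FDR between 0.0501 and 0.163. Cat stayed higher in all 20 alternatives and passed in 9 of them. The log2 ratio of Prdx2 to Cat counts was 3.75, 3.68 and 3.63 with CTRL and 3.20, 3.29 and 3.33 with CHD4-APR, a difference of -0.42.

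Sod1 (ENSMUSG00000022982, chromosome 16 from 90220754 to 90226329, plus strand), the copper and zinc superoxide dismutase of the cytosol, had 229, 211 and 203 CPM with CTRL and 176, 185 and 184 CPM with CHD4-APR. The groups were well apart, and the log2 fold change (± standard error) was -0.24 ± 0.048 with an FDR of 0.00101. Sod2 (ENSMUSG00000006818, chromosome 17 from 13006846 to 13040063, plus strand), the manganese enzyme of the mitochondrial matrix, had 56.8, 52.9 and 54.0 CPM with CTRL and 54.6, 55.6 and 51.8 CPM with CHD4-APR. Those libraries overlapped, and the log2 fold change (± standard error) was -0.01 ± 0.052 with an FDR of 0.851. The log2 ratio of Sod1 to Sod2 counts was 2.01, 2.00 and 1.91 with CTRL and 1.69, 1.73 and 1.83 with CHD4-APR. Every CHD4-APR library was therefore below every CTRL library in this ratio, by 0.22 on average. The genes differ in length, and the order of their fold changes turned with the length and GC correction, in which Sod1 was at -0.28 and Sod2 at -0.34, and more so with coding transcript lengths, in which Sod1 was at -0.05 and Sod2 at -0.37. Ccs, which encodes the chaperone that loads copper into Sod1, fell from 67.4 ± 3.30 to 56.2 ± 1.73 CPM (SD, n = 3), and the log2 fold change (± standard error) was -0.26 ± 0.051 with an FDR of 0.000819. With the length and GC correction Ccs was at -0.10 and did not pass (FDR 0.0849).

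Gpx1 (ENSMUSG00000063856, chromosome 9 from 108338903 to 108340343, plus strand), which reduces hydrogen peroxide in the cytosol and mitochondria, had 3632, 3378 and 3433 CPM with CTRL and 3112, 3129 and 3258 CPM with CHD4-APR. The groups did not overlap, and the log2 fold change (± standard error) was -0.14 ± 0.044 with an FDR of 0.0216. It did not pass without CHD4-APR replicate 1 (FDR 0.0961), without CHD4-APR replicate 2 (FDR 0.117) or with scaling by library size alone (FDR 0.0597). Gpx4 (ENSMUSG00000075706, chromosome 10 from 80047166 to 80056439, plus strand), which reduces peroxides of membrane lipids, had 1009, 911 and 901 CPM with CTRL and 734, 763 and 786 CPM with CHD4-APR. Every CHD4-APR library was below every CTRL library, and the log2 fold change (± standard error) was -0.30 ± 0.049 with an FDR of 0.000161. It passed in all 20 alternatives, with log2 fold changes between -0.34 and -0.13, the smallest falls being those with the length corrections. The log2 ratio of Gpx4 to Gpx1 counts was -1.85, -1.89 and -1.93 with CTRL and -2.08, -2.04 and -2.05 with CHD4-APR, so Gpx4 was lower relative to Gpx1 in every CHD4-APR library.

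For each of the 4 ratios given here (Prdx2 to Prdx3, Prdx2 to Cat, Sod1 to Sod2 and Gpx4 to Gpx1) the exact two-sided permutation test over the 6 libraries gave p = 0.1, the smallest that 3 against 3 libraries allow, and 0.1 after Benjamini-Hochberg adjustment over the 4. The pairs were chosen after their values were seen.

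Fold changes over the whole table went with transcript length. The corrections below remove length and GC content together, and the part of each was not tested. With tested genes split into 8 bins by the longest protein-coding transcript, or the longest of any kind in genes without one, the shortest bin, from 39 to 863 bases, had a median log2 fold change of -0.19, and the longest, from 5522 to 123179 bases, had 0.25. By this measure the 10 genes had a median length of 1545 bases, against 2640 for all tested genes. Their median GC content of 48.8% was close to the 49.6% of all tested genes, although it ran from 42.2% in Sod2 to 60.2% in Gpx4. In TPM, whose rescaling to a common total shifts all genes of a library alike, the median log2 ratio of CHD4-APR to CTRL was 0.14 over all tested genes and -0.01 over the 10 genes, so directions between the groups were not read from TPM.

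**Figure D3:**
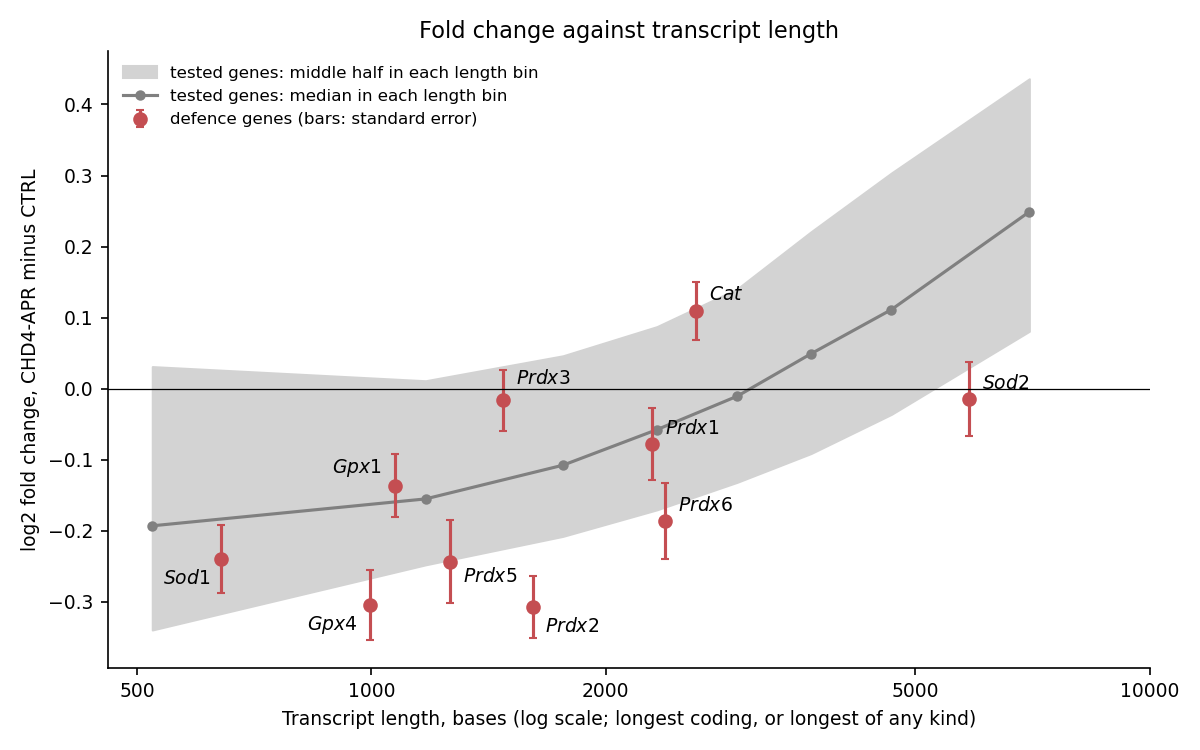
log2 fold change (CHD4-APR minus CTRL) against transcript length (longest protein-coding, or longest of any kind in genes without one) on a log axis; the grey line and band are the median and interquartile range of tested genes in 8 length bins, placed at the median length of each, and red points are the 10 genes with their standard error. The grey median runs from -0.19 to 0.25; Prdx2, Gpx4, Prdx6 and Sod2 lie below the band at their length.

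When the trend of each library on exonic length and GC content was removed, 6 of the 10 genes were again lower and 1 higher, but not all the same genes. Of all genes with a length, 16.1% were then called lower and 11.7% higher. Prdx2 (-0.26, FDR 9.19e-05), Prdx6 (-0.23, FDR 0.00293), Sod1 (-0.28, FDR 0.000283) and Gpx4 (-0.14, FDR 0.0133) were lower in both fits, and Cat was higher in both (0.14, FDR 0.00799). Prdx1 (-0.21, FDR 0.00745) and Sod2 (-0.34, FDR 0.000332) were lower only with the correction. Prdx5 (-0.09, FDR 0.204) did not pass with it, and Gpx1 turned to 0.03 (FDR 0.575). A correction on the coding transcript's length, added after seeing the data, gave the same calls except for Sod1, which was at -0.05 (FDR 0.404). Prdx2, Prdx6 and Gpx4 were thus called lower in each of these 3 fits.

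**Figure D4:**
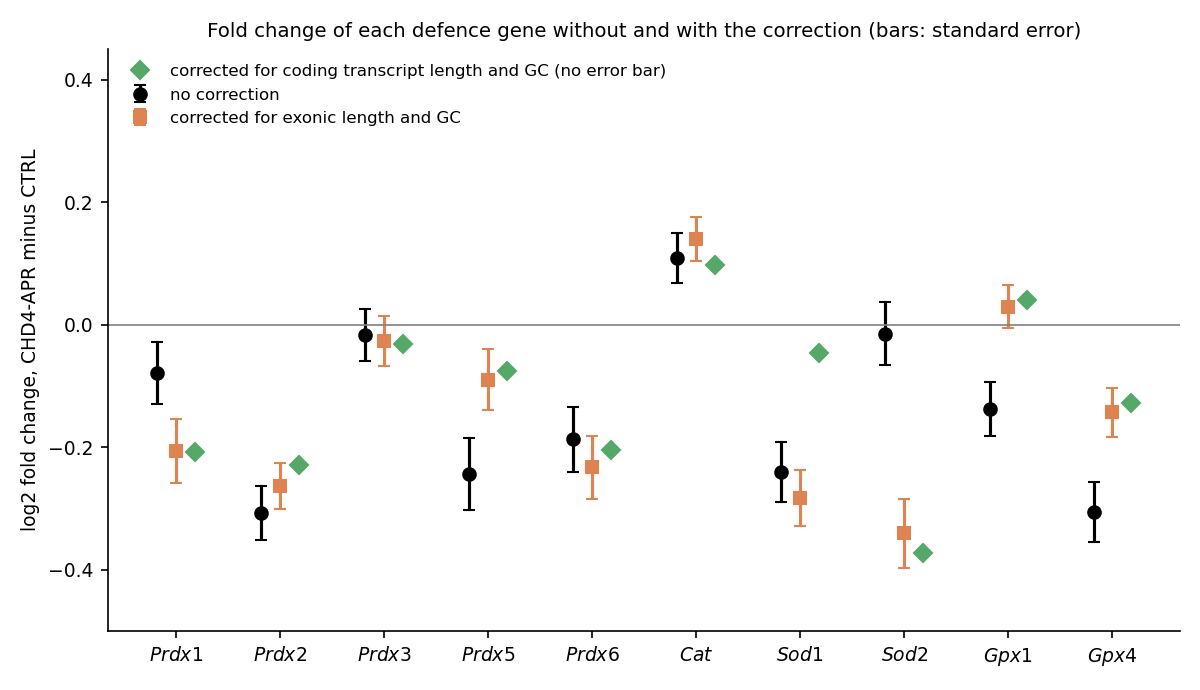
log2 fold change (CHD4-APR minus CTRL) of each gene without correction (black circles), corrected for exonic length and GC content (orange squares) and corrected for coding transcript length and GC content (green diamonds); bars are standard errors. Cat stays above 0 in all 3, Gpx1 changes sign, the other 8 genes stay below 0, and Prdx1, Prdx2, Prdx5, Sod1, Sod2, Gpx1 and Gpx4 each move by more than their standard error in at least 1 correction (Gpx4 from -0.30 to -0.14 and -0.13).

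The systems that feed these enzymes held calls in both directions, as all tested genes did (17.8% lower and 20.4% higher), and their counts are a description beside those shares. Of 20 thioredoxin system genes 18 were tested, of which 4 fell and 5 rose, with a median log2 fold change of 0.04. Txnip, the inhibitor of thioredoxin, rose from 89.7 ± 9.46 to 130 ± 7.15 CPM (log2 fold change 0.54, FDR 1.23e-05), and Tmx3, a thioredoxin-like enzyme of the endoplasmic reticulum, rose by 0.51 (FDR 1.74e-05). Txn1, the cytosolic thioredoxin that recharges Prdx1 and Prdx2, fell from 132 ± 7.25 to 113 ± 4.26 CPM (-0.23, FDR 0.00171), and Txndc17, a relative of thioredoxin, fell to a similar extent (-0.20, FDR 0.00259). Txnrd1, the reductase of cytosolic thioredoxin, was picked for its role after its values were seen and rose by 0.39. With the length and GC correction 5 genes of this list were lower and 3 higher, and Tmx3 was at 0.09 (FDR 0.174).

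Of 31 glutathione system genes 24 were tested, of which 8 fell and 6 rose, with a median of -0.06. Glrx5, a mitochondrial glutaredoxin needed for iron-sulfur clusters and heme synthesis, fell from 933 ± 27.5 to 785 ± 13.6 CPM (-0.25, FDR 0.00022), and Hagh, a glyoxalase, fell from 140 ± 4.87 to 117 ± 0.66 CPM (-0.26, FDR 0.000239). Gstcd rose by 0.36 (FDR 0.0147) and Chac2, which cleaves glutathione, by 0.34 (FDR 0.026). Picked after their values were seen, the genes of the first, rate-limiting step of glutathione synthesis, Gclc (0.28) and Gclm (0.25), were higher while Gss, of the second step, was lower (-0.23), and Gsr, the glutathione reductase that recharges glutathione, was higher (0.14). With the correction 7 genes of this list were lower and 2 higher, those 2 being Gclc and Gsr, and Hagh was at -0.12 (FDR 0.021), while Gclm (0.00, FDR 0.964), Gstcd (0.23, FDR 0.0991) and Chac2 (0.18, FDR 0.26) did not pass.

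Of 20 genes for selenoprotein synthesis or for other selenoproteins 17 were tested, of which 5 fell and 4 rose, with a median of 0.03. Secisbp2l, a relative of the factor that binds the selenocysteine insertion element of messages such as those of Gpx1 and Gpx4, rose from 26.3 ± 4.59 to 45.8 ± 2.90 CPM (0.80, FDR 9.32e-06). Selenoi, which makes phospholipids, rose by 0.41 (FDR 0.000623), and the small selenoproteins Selenow (-0.32, FDR 0.000998) and Msrb1 (-0.24, FDR 0.00289) fell. Picked for their roles after their values were seen, Secisbp2 itself was at 0.03 (FDR 0.719) and Eefsec, the elongation factor for selenocysteine, at 0.00 (FDR 0.991). With the correction 1 gene of the list was lower and 2 higher, and Secisbp2l kept a log2 fold change of 0.61 (FDR 4.51e-05), while Selenoi (0.08, FDR 0.4), Selenow (-0.12, FDR 0.0982) and Msrb1 (-0.08, FDR 0.271) did not pass.

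Of 22 redox regulators and targets 20 were tested, of which 2 fell and 7 rose, with a median of 0.07. Bach1, the heme-sensing repressor at antioxidant response elements, rose from 101 ± 5.74 to 132 ± 7.66 CPM (0.39, FDR 4.32e-05), and Oxr1 rose by 0.41 (FDR 0.00261). Park7, an oxidant sensor, fell from 135 ± 6.65 to 107 ± 5.41 CPM (-0.33, FDR 0.000112), and Nfe2, an erythroid activator that binds related elements, fell by 0.17 on the log2 scale (FDR 0.00368). Nfe2l2, which encodes Nrf2, was at 0.12 (FDR 0.0562), its partner Keap1 at -0.07 (FDR 0.32), and the Nrf2 targets Nqo1 and Hmox1 at 0.07 (FDR 0.213) and -0.13 (FDR 0.251), all 4 picked for their roles after their values were seen. With the correction 3 of this list were lower and 7 higher, but not all the same genes: Oxr1 did not pass (0.18, FDR 0.174), and Cul3, named after its values were seen, turned from higher (0.13, FDR 0.0299) to lower (-0.16, FDR 0.00305). Of 17 genes for sources of oxidants 9 were tested, with a median of -0.11: Ero1lb (0.48, FDR 0.0163) and Ero1l (0.17, FDR 0.0179), oxidases of the endoplasmic reticulum, rose and Poldip2 fell (-0.18, FDR 0.0154), while with the correction 1 was lower and 0 were higher.

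**Figure D5:**
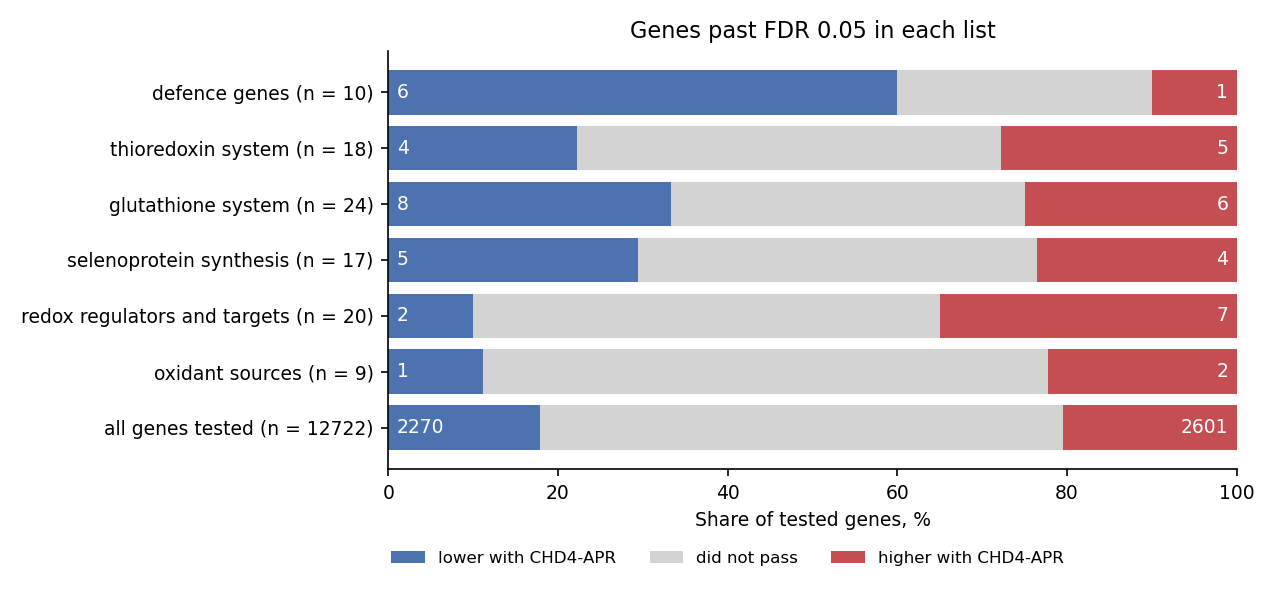
Share of the tested genes of each list that were lower (blue), higher (red) or not past an FDR of 0.05 (grey) by edgeR's quasi-likelihood test, with the numbers of calls inside the bars. The 10 defence genes have 6 lower and 1 higher, the redox regulators 2 lower and 7 higher, and all tested genes 2270 lower and 2601 higher.

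Among close relatives, Prdx4, the peroxiredoxin of the endoplasmic reticulum, was at 46.1 ± 1.43 and 43.0 ± 0.334 CPM (log2 fold change -0.10, FDR 0.134). Prdx6b, Sod3, Gpx2, Gpx3, Gpx5, Gpx6, Gpx7 and Gpx8 had 0 counts in all 6 libraries, as did the processed pseudogenes Prdx6-ps2 and Prdx2-rs3. Whether reads matching several genes were counted is not given in the sources used here, and the part of such copies was not tested. Prdx2 shares 173 of its 3050 exonic bases with Junb and 177 with Rnaseh2a, both on the opposite strand, and Rnaseh2a also fell (-0.26, FDR 0.000295). Sod1 overlaps Scaf4 but shares 0 exonic bases with it.

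The libraries held 41687482 to 49784177 counts each, and replicates were close, with a biological coefficient of variation of 0.0518 over all tested genes. In CTRL replicate 1, 9 of the 10 genes were above their group mean, and without that library 6 genes were still called lower. The 12 erythroid markers were all expressed and their summed level was 71209 to 76524 CPM with CTRL and 60682 to 64756 CPM with CHD4-APR, most of it hemoglobin. Of these 12 genes 5 were called lower, among them the 4 globin genes Hba-a1, Hba-a2, Hbb-bt and Hbb-bs, and 3 higher (Gata1, Tfrc and Epb42). With the length and GC correction 2 were lower (Hbb-bt and Hbb-bs) and 3 higher (Gata1, Epb42 and Slc4a1), while Tfrc, Hba-a1, Hba-a2 and Klf1 did not pass. Because these cells express GATA-1 as the ER fusion, the Gata1 counts may include RNA of the fusion. A rise of the cells' own Gata1 can therefore not be read from them. The part of the erythroid markers in the results was not tested. With the hemoglobin genes removed before scaling the same 6 genes were lower and Cat was higher, which concerns the scaling only. Markers of other blood cells were low: 7 megakaryocyte markers summed to 41.2 to 50.2 CPM, with Ppbp and Gp1bb at 0, 7 mast cell and basophil markers to 21.7 to 24.7 CPM, mostly Gata2, 9 myeloid markers to 3.16 to 4.72 CPM and 8 lymphoid markers to 0.324 to 0.614 CPM.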

How the data were processed

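Poly(A) RNA was sequenced from 6 libraries, 3 per peptide. The authors trimmed reads with Cutadapt, mapped them to GRCm38 with STAR 2.7.10a and ran featureCounts on Ensembl genes, and the deposited values are raw counts. Strand setting and treatment of multiply mapped reads are not given in the sources used here. Another 2 columns of the table had names of no sample in this series and were left out.

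Genes were named and located with GENCODE M21 (GRCm38), which held 48349 of 48709 identifiers. Counts were tested with edgeR 4.0.16 in R 4.3.3: genes passed filterByExpr, libraries were scaled by TMM, and groups were compared by the quasi-likelihood test with Benjamini-Hochberg adjustment at 0.05 and no replicate block. In the correction for length and GC content, known for 12677 tested genes, each library's log2 CPM (prior count 2) were smoothed on both with mgcv 1.9.3 and passed to edgeR as offsets. TPM were computed from the union of a gene's exons. Alternatives were DESeq2 1.42.0, limma-voom 3.58.1, other scalings, filters and thresholds, a replicate block, and leaving out each library. On simulated counts of 12604 genes edgeR recovered 181 of 194 changed genes with 8 false calls. With a simulated length trend and no changed gene edgeR made 1832 calls, and 0 after the correction. That trend was laid on exonic length, the same measure that the correction removes. The 0 therefore does not show how well the correction suits these data.

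The 10 genes, the lists, the tests and the alternatives were chosen with earlier results of these data known, and the motifs and sequences were chosen after the values were seen. In each list the text names the 2 genes that rose and the 2 that fell the most among those with an FDR under 0.05 and a mean log2 CPM of 1 or more, and others where it says so. By chi-square tests on the counts no 2 replicates were within sampling noise of each other, and all were kept as separate samples. These tests cannot tell whether the replicates were separate cultures.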

Additional observations from a re-analysis of the deposited data

How the results depend on the processing

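Over 20 alternatives for each of the 10 genes, 164 of 200 values kept their direction and side of the threshold. Prdx2 and Gpx4 were called lower in all 20, Sod1 in 19, Prdx6 in 18, Prdx5 in 17 and Gpx1 in 13, while Cat was called higher in 9. The number of defence genes called lower stayed between 4 and 6, and was 4 without CHD4-APR replicate 2 and at an FDR of 0.01. Over all tested genes, 1528 of 12952 were lower without that library and 1308 of 12722 at that FDR, against 2270 of 12722 in the main test. The number of defence genes called higher was 0 with upper quartile scaling, without a filter on low counts, with protein-coding genes only, with the replicate block, at an FDR of 0.01 and without any 1 library (0 to 0). The median of the 10 genes was -0.16, -0.12 with library size only and -0.10 with the correction on coding transcript length. Signs changed in 3 genes. Prdx3 was at 0.029 and Sod2 at 0.031 with library size only, and with 1 library left out they ranged from -0.039 to 0.0096 and from -0.038 to 0.021 (above 0 without CTRL replicate 1 for both, and without replicate 2 or 3 of CHD4-APR for Prdx3 or Sod2). Gpx1 was at 0.030 with the length and GC correction, with or without the replicate block, and at 0.041 with the coding transcript length.

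Of all tested genes, 4871 passed, against 2887 with the correction on coding transcript length. Those lower were 2270, against 1474 with library size only and 1308 at an FDR of 0.01, and those higher were 2601, against 1480 with the length and GC correction, 1683 with that correction and the replicate block and 1239 with the coding transcript length. The share of calls that were higher was 53.4%, 66.7% with library size only and 42.0% with the length and GC correction. Across alternatives the list counts ranged as follows. The thioredoxin system had 3 to 5 lower and 3 to 6 higher, and the glutathione system 6 to 10 lower and 2 to 6 higher. Selenoprotein synthesis had 1 to 5 lower and 2 to 6 higher. Redox regulators and targets had 2 to 3 lower and 5 to 9 higher, and oxidant sources 0 to 1 lower and 0 to 2 higher. Other causes of these shifts were not tested.

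Same-numbered libraries did not deviate together, with correlations of 0.0697, 0.0552 and -0.035 over genes, and not every library correlated best with its own number. With the replicate block 5214 genes passed, 6 defence genes were lower and Cat was at 0.11 with an FDR of 0.0567. With 3 libraries a group the spread is estimated from few values, and genes of low count such as Ero1lb are the least certain.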
